A study of Mus musculus with 20 samples.

Results

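A set of 9 complement genes was followed here through every library of a mouse tumor RNA-seq series. They were C1qa, C1qb, C1qc, C2, C3, C4b, Cfb, Serping1 and C5ar1, chosen by symbol and not by their values, and each matched a single row of the gene table. The table held 54309 genes, of which 19567 passed the low-count filter, and all 9 complement genes were among those that passed. Counts are given as CPM, counts per 1e6 reads after scaling each library by its TMM factor.

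Complement is a cascade of plasma and tissue proteins that marks cells and debris for removal. In the classical pathway C1q binds its target and the attached proteases cut C4 and C2, while in the alternative pathway factor B takes part in the cutting enzyme, and both routes converge on C3. Macrophages are a known source of C1q in tissues, whereas C3, C4, C2 and factor B are made by many cell types and are known to respond to interferon gamma.

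The tumors were SCCVII, a mouse squamous cell carcinoma line implanted under the skin of immunocompetent C3H/HeOuJ mice, and they fell into 10 groups of 2 libraries, replicates A and B. Anti-CTLA-4, anti-CD8, anti-PD-1 and APG-157 were each given alone. APG-157 was joined to anti-PD-1 (APG-157 + anti-PD-1), to anti-CTLA-4 (APG-157 + anti-CTLA-4), or to both antibodies (the triple treatment). The antibody pair was anti-PD-1 + anti-CTLA-4 with no drug, and the CD8-depleted combination was anti-CD8 + APG-157 + anti-CTLA-4. All were set against control tumors. APG-157, a curcumin-based botanical drug, was given in food, and the antibodies, which block the T cell checkpoints PD-1 and CTLA-4 or deplete CD8+ T cells, were given by intraperitoneal injection. Control mice of the checkpoint experiment received saline. The labels gave no age, no day of collection and no word on which of the study's experiments, with or without depletion, the control and APG-157 + anti-CTLA-4 libraries came from. Nor did they say whether replicates A and B were different tumors, so that p-values reflect library-to-library spread, which may be technical.

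Library totals (in units of 1e6) ran over 43.9 to 72.1 around a median of 54.9, and TMM factors between 0.960 and 1.04. The APG-157 + anti-CTLA-4 libraries differed from each other by a biological coefficient of variation of 4.23%, against 20.9% to 68.3% in the other groups. The labels call the samples cancer cells, yet macrophage, fibroblast and T cell markers were present in every library. Of the epithelial markers Krt8 and Krt18 were abundant (medians of 814 and 975 CPM) while Krt5 was at 0 in 16 of 20 libraries and Krt6a did not exceed 0.402 CPM. Replicate B of the CD8-depleted combination stood apart. Its 8 adipocyte markers averaged 7.27 on the log2(CPM + 0.1) scale, where the other libraries lay between -2.12 and 1.22, and their summed level was 3139 CPM against at most 115 CPM elsewhere. It also had the highest list level for squamous epithelium (3.67, at most 3.09 elsewhere), endothelial cells (4.79, at most 4.52), neutrophils (0.19, at most -0.10) and hepatocytes (-2.26, at most -3.01), and the lowest for macrophages. By summed CPM this library was not first for squamous epithelium, with 1420 CPM against up to 2246 CPM elsewhere. Nor was it for endothelial cells (239, up to 260 CPM) or neutrophils (38.4, up to 48.0 CPM). Many of the values that moved on leaving this library out are given both ways, but not all. Hepatocyte markers, which would mark the liver that makes plasma complement, summed to at most 0.994 CPM, and Ttr was at 0 in all libraries.

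None of the 9 complement genes passed an adjusted p under 0.05 in any of the 15 edgeR comparisons, yet they differed widely in how much they varied. The C1q chains spanned 2.92-fold to 3.11-fold over all libraries. C2, C4b and Cfb spanned 9.00-fold, 9.36-fold and 9.79-fold, C5ar1 spanned 4.22-fold, and Serping1 and C3 spanned 39.5-fold and 49.7-fold. Without the adipocyte-rich library C3 spanned 16.3-fold and C5ar1 2.1-fold, and Serping1 had the widest span. The SD of log2 CPM over the 20 libraries was 0.47, 0.48 and 0.48 for C1qa, C1qb and C1qc, 0.41 for C5ar1, 0.78 for C2, 0.90 for C4b, 0.92 for Cfb, 1.26 for Serping1 and 1.63 for C3. Over all genes tested the median SD, there of log2(CPM + 0.1), was 0.34.

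**Figure D1:**
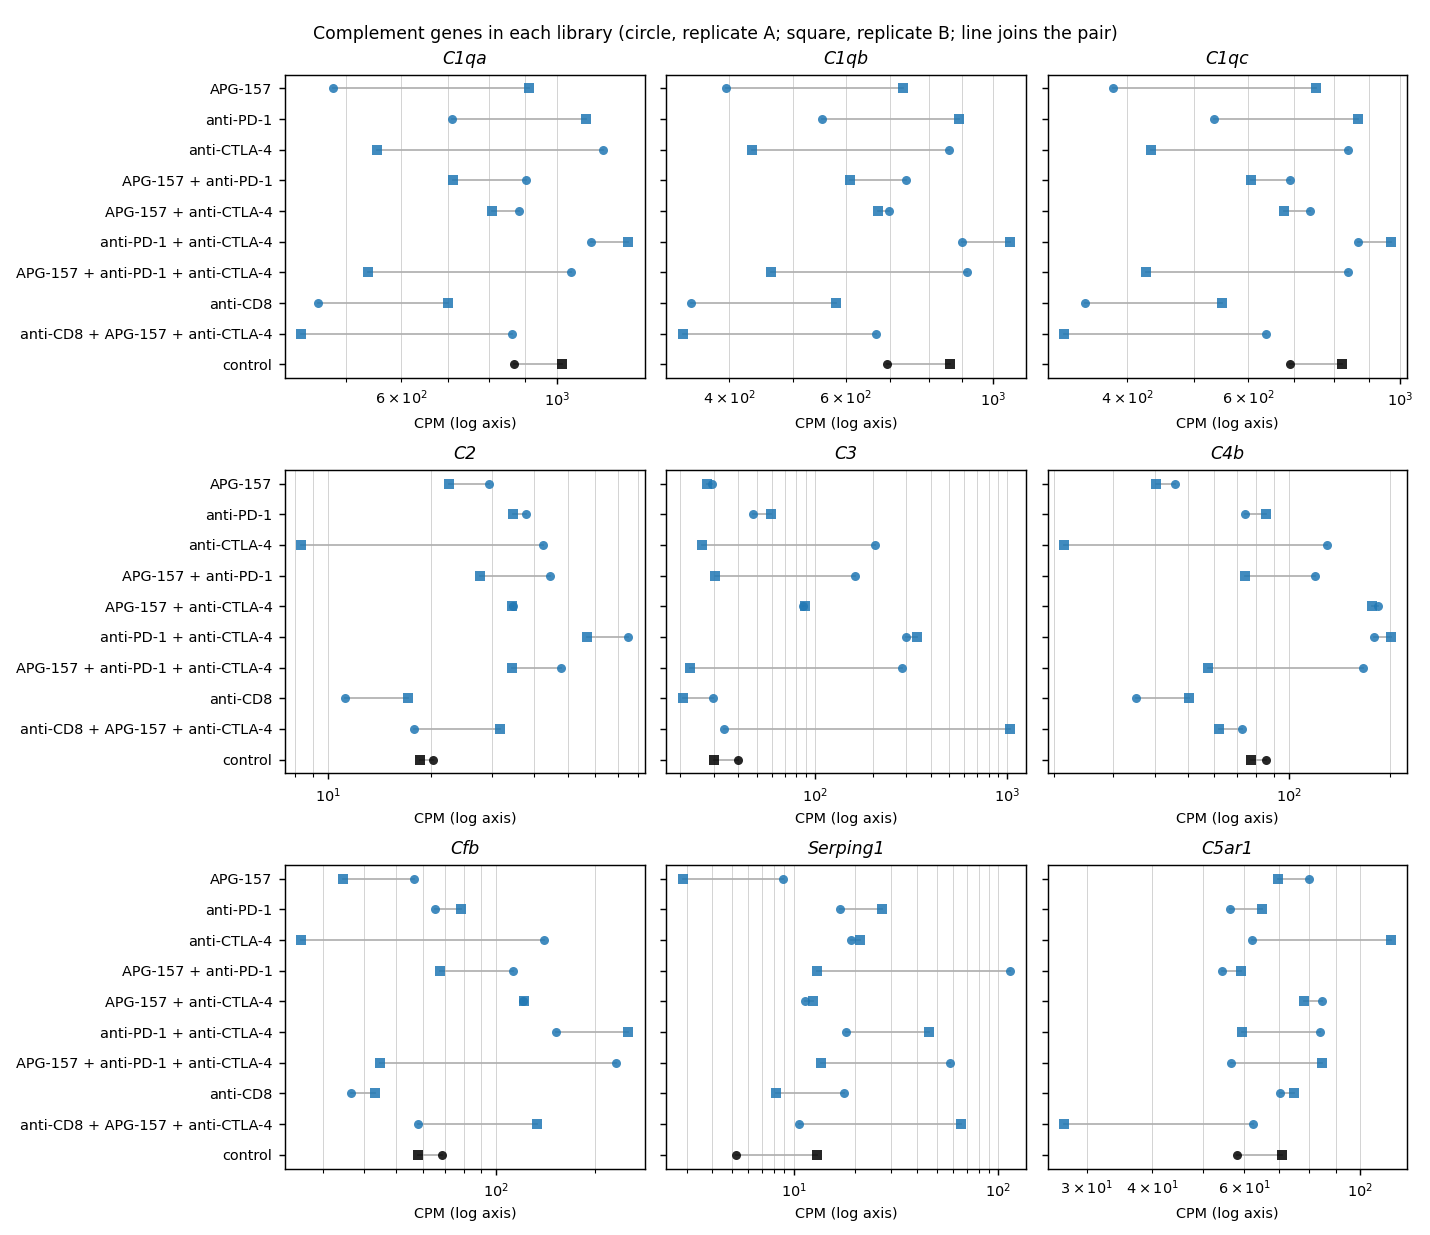
Each panel plots one complement gene, with CPM on a log axis and the 10 groups down the page, control last. Circles and squares are replicates A and B and the line joins them, and the widest gaps between replicates were those of C3 in the CD8-depleted combination (33.7 and 1029 CPM) and in the triple treatment (285 and 22.7 CPM).

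C1qa, C1qb and C1qc encode the A, B and C chains that assemble into C1q. Their highest value was in a tumor given the antibody pair, a treatment under which C1qa had 1118 and 1264 CPM in replicates A and B, against 869.7 and 1019 CPM in control tumors. Their lowest were in the CD8-depleted combination replicate B, the adipocyte-rich library, with 433 CPM of C1qa beside 864 CPM in replicate A. Replicates often disagreed, so that treated and control tumors overlapped in most groups. C1qa had 480.0 and 912 CPM with APG-157, 709 and 1100.4 CPM with anti-PD-1, and 1162 and 553 CPM with anti-CTLA-4. It had 905 and 711 CPM with APG-157 + anti-PD-1, 884 and 809 CPM under APG-157 + anti-CTLA-4, 1047 and 538 CPM with the triple treatment, and 456 and 700.5 CPM with anti-CD8. Both anti-CD8 libraries lay below both controls, as did both libraries of the CD8-depleted combination, there by 864 against 869.7 CPM at the closest. Both libraries of the antibody pair lay above both controls.

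C1qb repeated this order almost library by library. It had 899 and 1060.3 CPM with the antibody pair, 349.9 and 580.0 CPM with anti-CD8, and 692 and 862 CPM in control tumors, and over all libraries it ranged from 341 to 1060.3 CPM with a median of 681 CPM. C1qc had 867 and 969 CPM with the antibody pair, 348 and 549.8 CPM with anti-CD8, and 691 and 823 CPM in control tumors, with a range of 324 to 969 CPM and a median of 683 CPM. The ratio of C1qa to C1qb stayed between 1.15 and 1.36 over the 20 libraries and that of C1qb to C1qc between 0.947 and 1.09. The pairwise Pearson r of the chains lay between 0.991 and 0.993 on the log2 scale, and between 0.995 and 0.996 for deviations from group means. These libraries share treatments and depth, so the r values describe likeness only. For C1qa the likest genes were C1qb (r = 0.992), C1qc (r = 0.991) and Rhoh (r = 0.965), a GTPase of blood cells. For C1qb they were C1qc, C1qa and Cd300c2 (r = 0.969), and for C1qc they were C1qb, C1qa and Cd300c2 (r = 0.955).

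The promoters of C1qb and C1qc are shown because these neighbouring genes moved together, with the RefSeq sequence of build GRCm38.p6 running from 250 bases before the start to 50 after it. Of the 9 genes 4 had an entry in this table, C1qb, C1qc, C3 and C5ar1. Capitals mark every match, on either strand, to the motifs searched. These were TGCTGA (a partial Maf site), GAGGAA (the core of PU.1 sites), TTGCNNAA (a C/EBP site), TTCNNNGAA (the gamma-activated site) and the interferon-stimulated response element. C1qb lies on the minus strand at chr4:136886151-136886450 and C1qc on the minus strand at chr4:136892865-136893164.
C1qb: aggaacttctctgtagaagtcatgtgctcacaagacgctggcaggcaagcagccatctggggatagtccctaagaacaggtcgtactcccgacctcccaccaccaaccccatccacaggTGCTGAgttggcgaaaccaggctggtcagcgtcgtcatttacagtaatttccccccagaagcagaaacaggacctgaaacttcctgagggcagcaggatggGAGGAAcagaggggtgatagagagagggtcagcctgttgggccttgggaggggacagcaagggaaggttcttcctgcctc
C1qc: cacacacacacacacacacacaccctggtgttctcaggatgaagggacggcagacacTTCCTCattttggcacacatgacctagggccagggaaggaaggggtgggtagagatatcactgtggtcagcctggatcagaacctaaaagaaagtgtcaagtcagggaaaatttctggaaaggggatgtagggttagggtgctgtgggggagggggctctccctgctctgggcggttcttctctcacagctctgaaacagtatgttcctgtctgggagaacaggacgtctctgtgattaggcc
C1qb held TGCTGA from base -131 to -126 and GAGGAA from -30 to -25, and C1qc held only GAGGAA, on the other strand, from -193 to -188. Among 32851 promoters of the same length 19.5% held TGCTGA and 28.3% held GAGGAA. A match is a run of letters and no evidence of binding.

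C2, C4b and Cfb encode the protease of the classical C3 convertase, its C4 partner, and factor B of the alternative convertase. All 3 were lowest in anti-CTLA-4 replicate B and among the highest in tumors given the antibody pair. C2 had 75.2 and 56.8 CPM with the antibody pair, against 20.3 and 18.5 CPM in control tumors. It had 42.4 and 8.35 CPM with anti-CTLA-4, 37.8 and 34.7 CPM with anti-PD-1, 29.4 and 22.4 CPM with APG-157, and 44.4 and 27.7 CPM with APG-157 + anti-PD-1. It had 34.6 and 34.3 CPM under APG-157 + anti-CTLA-4, 48.0 and 34.4 CPM with the triple treatment, 11.2 and 17.0 CPM with anti-CD8, and 17.8 and 31.7 CPM with the CD8-depleted combination. C2 was thus above both controls in both libraries of 6 of the 9 treated groups and below them in the anti-CD8 group. The other 2 groups overlapped control, and all 9 were set against the same 2 control libraries. With the antibody pair 18.8% of all genes lay above both controls in this way, and under APG-157 + anti-CTLA-4 28.8% did.

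C4b had 179 and 201 CPM with the antibody pair and 184 and 176 CPM under APG-157 + anti-CTLA-4, against 85.3 and 77.1 CPM in control tumors. It had 129 and 21.4 CPM with anti-CTLA-4, 165 and 57.6 CPM with the triple treatment, 119 and 74.0 CPM with APG-157 + anti-PD-1, and 73.9 and 85.3 CPM with anti-PD-1. The groups below both controls were APG-157 with 45.7 and 40.3 CPM, anti-CD8 with 35.0 and 50.3 CPM, and the CD8-depleted combination with 72.6 and 62.0 CPM. C4b has a near-identical copy, C4a, listed at 0.627 to 2.58 CPM, and the counting may split reads between them, so the level of either is uncertain.

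Cfb had 153 and 252 CPM with the antibody pair and 121 and 122 CPM under APG-157 + anti-CTLA-4, against 68.7 and 57.9 CPM in control tumors. Replicates split in 3 groups, with 232 and 44.5 CPM under the triple treatment, 140.3 and 25.8 CPM under anti-CTLA-4, and 58.1 and 133 CPM under the CD8-depleted combination. In each of these groups one library lay far above the controls and the other between or below them. It had 113 and 67.9 CPM with APG-157 + anti-PD-1, 65.4 and 78.7 CPM with anti-PD-1, 56.6 and 34.5 CPM with APG-157, and 36.5 and 43.0 CPM with anti-CD8.

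C2, C4b and Cfb resembled each other, with r = 0.815 for C2 and C4b, 0.827 for C2 and Cfb, and 0.902 for C4b and Cfb over the 20 libraries. For Cfb the likest genes among all that passed the filter were Gbp6 (r = 0.977), Fgl2 (r = 0.974) and Gm43302 (r = 0.972), of which Gbp6 is an interferon-inducible guanylate-binding protein. For C4b they were Mmp25 (r = 0.970), Lair1 (r = 0.970) and Nlrc5 (r = 0.968), the last a transactivator of MHC class I genes. For C2 they were Apol9a (r = 0.942), Fgd3 (r = 0.920) and Apol9b (r = 0.918).

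C3, the component that all activation routes cleave, had the highest SD of the 9 genes, also without the adipocyte-rich library (1.39, with 1.19 for Serping1). It had 298 and 338 CPM with the antibody pair and 86.7 and 89.0 CPM under APG-157 + anti-CTLA-4, against 40.0 and 30.0 CPM in control tumors. These groups and anti-PD-1, with 48.2 and 59.3 CPM, were the ones with both libraries above both controls. In 4 groups the replicates fell on opposite sides of the controls or far apart, with 206 and 26.1 CPM under anti-CTLA-4, 163 and 30.6 CPM under APG-157 + anti-PD-1, 285 and 22.7 CPM under the triple treatment, and 33.7 and 1029 CPM under the CD8-depleted combination. The 1029 CPM came from the adipocyte-rich library. Adipose tissue is known to make C3, but its part in this value was not tested. C3 had 29.4 and 27.8 CPM with APG-157 and 29.6 and 20.7 CPM with anti-CD8, all below both controls.

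The likeness of C3 to other members turned on that library. Its r with Cfb was 0.865 over 20 libraries and 0.930 over the 19 without it, and its r with C1qa was 0.288 and 0.708. Among its likest genes over 20 libraries were Slain1 (r = 0.952) and Mgst1 (r = 0.948). Over the 19 libraries the likest were Inpp5j (r = 0.979), Cd160 (r = 0.964) and Ms4a4b (r = 0.960), the last pair being genes of T and natural killer cells. The C3 promoter is shown because C3 had the highest SD and holds a C/EBP-type match close to its start. It lies on the minus strand of chromosome 17 at chr17:57228087-57228386.
C3: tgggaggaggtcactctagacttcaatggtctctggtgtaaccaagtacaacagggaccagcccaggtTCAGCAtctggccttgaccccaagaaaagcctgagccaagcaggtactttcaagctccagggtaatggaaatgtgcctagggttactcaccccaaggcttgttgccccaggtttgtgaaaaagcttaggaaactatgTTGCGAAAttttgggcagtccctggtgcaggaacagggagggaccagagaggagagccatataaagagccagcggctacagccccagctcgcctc
TTGCNNAA matched from base -45 to -38 and TGCTGA, on the other strand, from -182 to -177. TTGCNNAA was found in 10.8% of all promoters. The interferon-stimulated response element (found in 3.44% of promoters) and TTCNNNGAA (8.3%) matched in none of the 4 windows, which says only that these letters are not there. The C5ar1 window held TGCTGA from -17 to -12.

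Serping1, the inhibitor of the C1r and C1s proteases, spanned 2.87 to 113 CPM. Its highest value was 113 CPM in APG-157 + anti-PD-1 replicate A, where replicate B had 13.03 CPM, against 5.21 and 12.97 CPM in control tumors. Next came 65.5 CPM in the adipocyte-rich library, beside 10.6 CPM in the other library of its group, and 58.1 CPM in replicate A of the triple treatment, beside 13.6 CPM. It had 18.1 and 45.6 CPM with the antibody pair, 16.8 and 27.0 CPM with anti-PD-1, and 19.01 and 21.0 CPM with anti-CTLA-4, all above both controls. APG-157 + anti-PD-1 and the triple treatment also had both libraries above both controls, by 13.03 and 13.57 against 12.97 CPM at the closest. It had 11.3 and 12.5 CPM under APG-157 + anti-CTLA-4, 17.7 and 8.22 CPM with anti-CD8, and 8.87 and 2.87 CPM with APG-157, groups that overlapped control. The likest genes were Ms4a4d (r = 0.962), Epdr1 (r = 0.953) and Sulf1 (r = 0.914), a sulfatase of the cell surface. APG-157 + anti-PD-1 replicate A also had the highest fibroblast list level, 8.03 on the log2(CPM + 0.1) scale, and a skeletal muscle list level of 7.90, the highest but for 8.62 in replicate A of the triple treatment.

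C5ar1, the receptor for the C5a fragment on myeloid cells, had the lowest SD of the 9. It had 62.2 and 115 CPM with anti-CTLA-4 and 62.4 and 27.2 CPM with the CD8-depleted combination, which held its extremes, against 58.1 and 71.0 CPM in control tumors. The highest value fell in anti-CTLA-4 replicate B, where C2, C4b and Cfb were at their lowest. It had 84.7 and 78.2 CPM under APG-157 + anti-CTLA-4, above both controls, and 54.4 and 59.2 CPM with APG-157 + anti-PD-1. It had 79.9 and 69.7 CPM with APG-157, 56.3 and 64.8 CPM with anti-PD-1, 83.8 and 59.4 CPM with the antibody pair, 56.5 and 84.5 CPM with the triple treatment, and 70.4 and 74.6 CPM with anti-CD8. Its likest genes were Dap (r = 0.920), Gjc1 (r = 0.908) and Tshz3 (r = 0.907) over 20 libraries, and Cd14 (r = 0.898), a monocyte receptor, came first over the 19 libraries. Its r with Cfb was -0.429 over all libraries and -0.791 for deviations from group means. With C1qa, C1qb and C1qc its r was 0.059, 0.066 and 0.104 over all libraries. Without the adipocyte-rich library these were -0.440, -0.444 and -0.409.

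**Figure D2:**
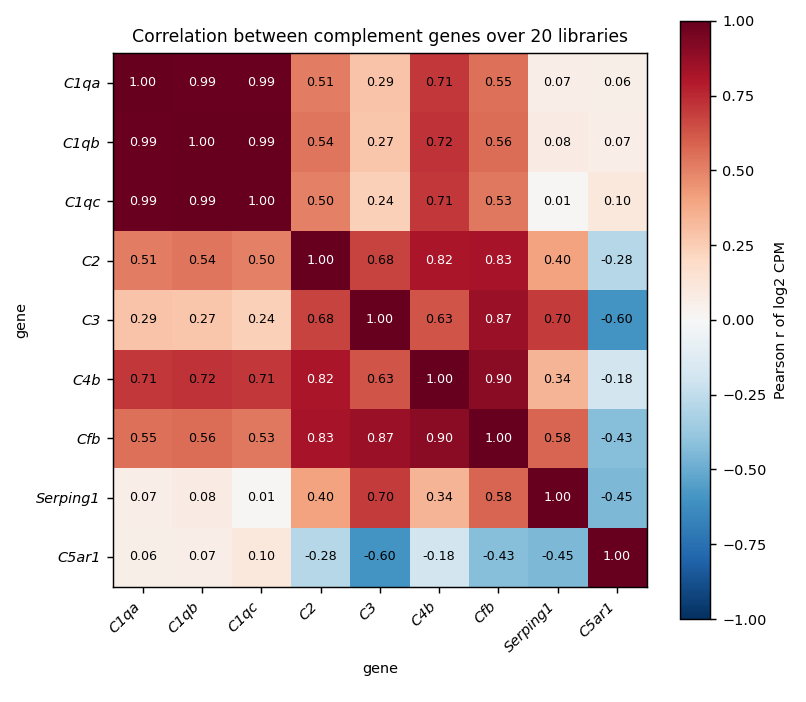
The grid gives Pearson r of log2 CPM over 20 libraries for each pair of complement genes, with red for positive and blue for negative values. The C1q chains form a block near 0.99, C2, C4b and Cfb lie between 0.815 and 0.902, and C5ar1 is negative or near 0 with the rest.

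To set the genes beside cell content and interferon signalling, each was correlated over the 20 libraries with the mean log2(CPM + 0.1) of 10 macrophage markers, 10 fibroblast markers and 14 interferon gamma response genes. These lists hold none of the 9 genes. In bulk tumors fewer cells of a type and less RNA per cell cannot be told apart. The 27 relations were tested by 100000 two-sided permutations of the libraries, with Benjamini-Hochberg adjustment over the 27, and p is a description because libraries of a group share a treatment.

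The C1q chains followed the macrophage list. C1qa had r = 0.859 and Spearman rho = 0.907, C1qb had r = 0.866 and rho = 0.932, and C1qc had r = 0.858 and rho = 0.901. Each had a permutation p = 1e-05 for both measures, the smallest these permutations can give, and an adjusted permutation p = 4.5e-05. Without the 2 libraries farthest from the list median r was 0.904, 0.911 and 0.878, for deviations from group means it was 0.854, 0.839 and 0.836, and without the adipocyte-rich library 0.905, 0.910 and 0.880. Over the 20 libraries their r with the interferon list was lower, 0.656, 0.662 and 0.638 (adjusted permutation p = 0.00618, 0.00618 and 0.00826), and with the fibroblast list it lay between -0.140 and -0.071. This order depended on the replicate letter. Within replicate A libraries r was 0.886, 0.911 and 0.906 with the interferon list and 0.873, 0.908 and 0.870 with the macrophage list. Within replicate B libraries it was 0.456, 0.471 and 0.432 with the interferon list (adjusted permutation p = 0.409 for each) and 0.914, 0.924 and 0.923 with the macrophage list.

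C4b and Cfb followed the interferon list most closely. C4b had r = 0.954 and rho = 0.919 and Cfb had r = 0.962 and rho = 0.961, each with an adjusted permutation p = 4.5e-05 for both measures. Without the 2 farthest libraries r was 0.945 and 0.947, within replicate A libraries 0.960 and 0.972, and within replicate B libraries 0.943 and 0.954. C2 had r = 0.851 and rho = 0.851 with this list (adjusted permutation p = 4.5e-05 and 7.71e-05) and 0.804 without the 2 farthest libraries. C3 had r = 0.770 and rho = 0.890 (adjusted permutation p = 0.000347 and 4.5e-05), 0.733 without the 2 farthest libraries and 0.915 without the adipocyte-rich one. Without that library C4b had 0.961, Cfb 0.977 and C2 0.852. Within replicate A libraries C3 had 0.929, and within replicate B libraries it had 0.665 and did not pass (adjusted permutation p = 0.139). With the fibroblast list C3 had r = 0.177 over the 20 libraries (adjusted permutation p = 0.618). For deviations from group means C3 had 0.730 with the interferon list and 0.544 with the fibroblast list, where it passed (adjusted permutation p = 0.0286). C2, C3, C4b and Cfb also ran with the macrophage list. C4b passed by both measures (r = 0.524, adjusted permutation p = 0.0371, and rho = 0.711, adjusted permutation p = 0.00186). Over the 20 libraries C2, Cfb and C3 passed by rho (0.617, 0.583 and 0.51, adjusted permutation p = 0.0112, 0.0156 and 0.04) and not by r (0.375, 0.309 and -0.028). Without the adipocyte-rich library C2, Cfb and C3 passed by r too, with 0.631, 0.718 and 0.737 (adjusted permutation p = 0.00758, 0.0016 and 0.00124).

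Serping1 had r = 0.519 with the interferon list (adjusted permutation p = 0.041, and 0.0516 for rho = 0.487) and r = 0.471 with the fibroblast list (adjusted permutation p = 0.0753, and 0.0606 for rho = 0.471). Without the 2 farthest libraries these were 0.544 and 0.600, the last with an adjusted permutation p = 0.0196. For deviations from group means the interferon relation no longer passed (r = 0.461, adjusted permutation p = 0.0703) and the fibroblast one did (r = 0.660, adjusted permutation p = 0.00388). Over the 20 libraries C5ar1 passed with none of the lists by r, with -0.274 for interferon, 0.351 for macrophage and -0.443 for fibroblast genes. By rho it passed only with the fibroblast list (rho = -0.531, adjusted permutation p = 0.0331). For deviations from group means its r with the interferon list was -0.649 and passed (adjusted permutation p = 0.00861). Its r with the macrophage list rested on the adipocyte-rich library, which had the lowest level of both. Without that library it was -0.501 (adjusted permutation p = 0.0454), and without the 2 farthest libraries -0.660 (adjusted permutation p = 0.00616).

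**Figure D3:**
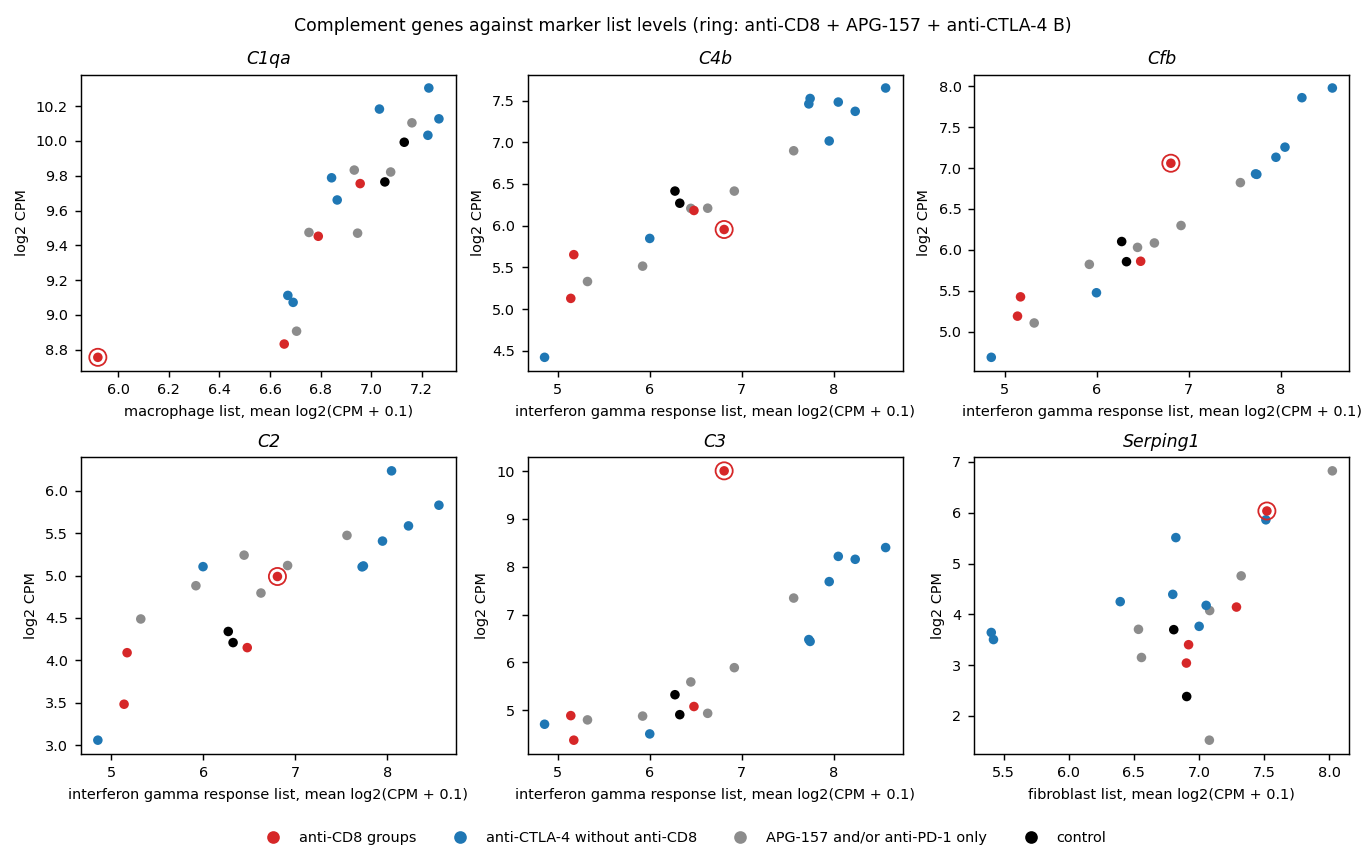
Each point is a library, with the mean log2(CPM + 0.1) of a marker list on the horizontal axis and log2 CPM of a complement gene on the vertical axis, in red for anti-CD8 groups, blue for anti-CTLA-4 without anti-CD8, grey for the drug or anti-PD-1 only and black for control. C4b and Cfb run with the interferon list (r = 0.954 and 0.962), and the ringed adipocyte-rich library lies off the trend for C3 and low on both axes for C1qa.

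The effect of each agent was then read over the 8 groups that cross the drug with both checkpoint antibodies, as 8 libraries with the agent minus 8 without it. With APG-157 the 9 log2 fold changes lay between -0.30 and 0.08. The median log2 fold change was -0.04, beside -0.02 over all genes, 2 of 9 were above 0, and edgeR called 0 of 9 (adjusted p at least 0.711), with 0 at an unadjusted p under 0.05. It called 0% of all genes.

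With anti-PD-1, 8 of 9 genes had a positive log2 fold change, with a median of 0.45 beside -0.02 over all genes. Serping1 averaged 38.2 CPM with anti-PD-1 and 11.7 CPM without it (log2 fold change 1.74 ± 0.54 SE) and C2 averaged 44.9 and 26.3 CPM (0.75 ± 0.27). These were the 2 of 9 at an unadjusted p under 0.05, where edgeR put 8.77% of all genes. Neither passed the adjustment (edgeR adjusted p = 0.561 for both), and edgeR called 0 of 9 members and 0% of all genes. With the skeletal muscle list as a covariate Serping1 was at 1.16 and without APG-157 + anti-PD-1 replicate A at 1.19.

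With anti-CTLA-4 all 9 log2 fold changes were positive, with a median of 0.46 beside 0.00 over all genes. C3 averaged 169 CPM with anti-CTLA-4 and 53.5 CPM without it (1.65 ± 0.68), C4b averaged 139 and 75.1 CPM (0.85 ± 0.31), and Cfb averaged 136 and 67.9 CPM (0.98 ± 0.38). These were the 3 of 9 genes at an unadjusted p under 0.05, where 10.1% of all genes stood. None passed the adjustment (edgeR adjusted p = 0.425, 0.316 and 0.371), and edgeR called 0 of 9 members and 0.25% of all genes. DESeq2 called 0 of 9 in each of these 3 comparisons. Without anti-CTLA-4 replicate B, the library with the lowest C4b, C4b was at 1.04 with an edgeR adjusted p = 0.048, the 1 of 9 called, beside 0.559% of all genes. The C1q chains had 0.13, 0.12 and 0.10 with anti-CTLA-4, each with an SE of 0.22. In every contrast the libraries with and without an agent overlapped for all 9 genes.

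**Figure D4:**
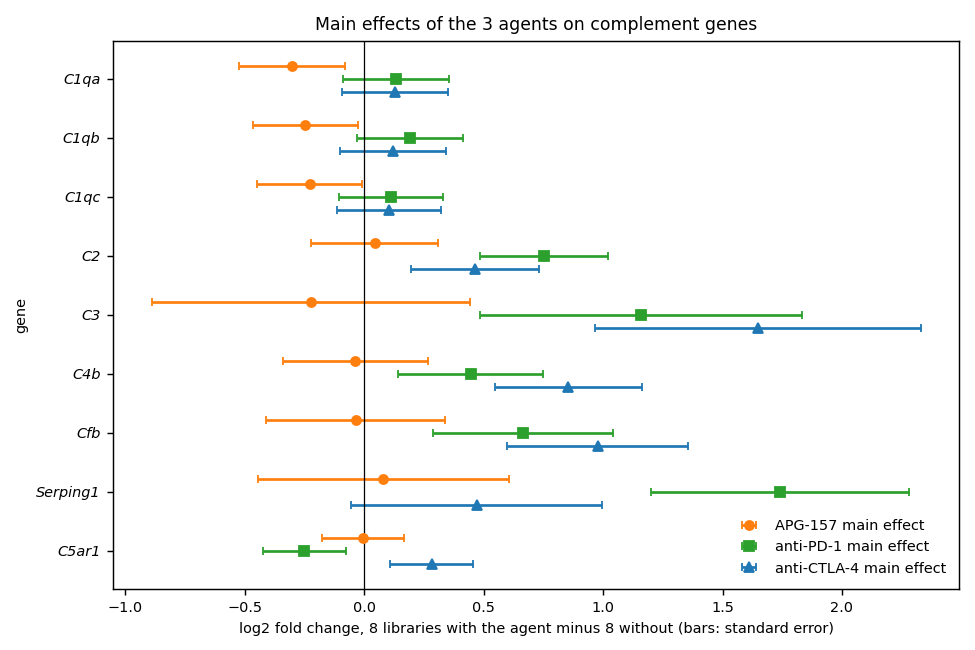
Points are log2 fold changes of the 9 complement genes for the drug and each checkpoint antibody, each as 8 libraries with the agent minus 8 without, with bars for the standard error. Serping1 is farthest right for anti-PD-1 (1.74) and C3 for anti-CTLA-4 (1.65), and all APG-157 values lie between -0.30 and 0.08.

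Against control, the tumors given the antibody pair stood out by direction. All 9 log2 fold changes were positive, with a median of 1.22 beside -0.04 over all genes, and in 8 of 9 genes, all but C5ar1, both treated libraries lay above both controls, as did 18.8% of all genes. C3 was at 3.18 ± 1.45, C2 at 1.77 ± 0.55 and Cfb at 1.68 ± 0.77, which made 3 of 9 at an unadjusted p under 0.05, beside 6.04% of all genes. C4b was at 1.22 ± 0.62 and Serping1 at 1.81 ± 1.08, whereas C1qa, C1qb and C1qc were at 0.34, 0.33 and 0.28 with an SE of 0.44. EdgeR called 0 of 9 (lowest adjusted p = 0.73) and 0% of all genes, and DESeq2 called 0 of 9. A fit to these 2 groups only, whose replicates were close, called 4 of 9, C2, C3, C4b and Cfb (edgeR adjusted p = 0.0103, 0.00626, 0.0151 and 0.0266), beside 1.81% of all genes. T cell list levels in these tumors were 4.44 and 5.04, against 1.96 and 2.40 in control tumors, and interferon list levels were 8.05 and 8.56, against 6.27 and 6.32 in control tumors. The part of these cells and signals in the complement values was not tested.

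APG-157 + anti-CTLA-4 tumors had C4b at 1.15 ± 0.62, Cfb at 0.94 ± 0.76 and C2 at 0.83 ± 0.54 on the log2 scale against control. Both libraries lay above both controls in 5 of 9 genes, C2, C3, C4b, Cfb and C5ar1, as they did in 28.8% of all genes. EdgeR called 0 of 9 (lowest adjusted p = 0.50) with 0 at an unadjusted p under 0.05, beside 0.0204% of all genes called, and DESeq2 called 0. A fit to these 2 groups only called 4 of 9, among them C4b, C2 and Cfb (edgeR adjusted p = 0.0102, 0.0244 and 0.0226), with the treated libraries nearly identical, beside 4.21% of all genes. Set against anti-CTLA-4 alone, whose replicates split, C4b was at 1.26 ± 0.62 and edgeR called 0 of 9 (lowest adjusted p = 0.24, 0 at an unadjusted p under 0.05) and 0.00511% of all genes. DESeq2 called 0 there too.

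The other groups of the crossed design gave no call. EdgeR called 0 of 9 and 0% of all genes for APG-157 minus control, 0 of 9 and 0% for anti-PD-1 minus control, and 0 of 9 and 0% for anti-CTLA-4 minus control, with 0 of 9 at an unadjusted p under 0.05 in each. For the triple treatment minus control it called 0 of 9 and 0% of all genes, with 0 at an unadjusted p under 0.05 and C3 at 2.14 ± 1.39. For APG-157 + anti-PD-1 minus control it called 0 of 9 and 0% of all genes, with 1 of 9 at an unadjusted p under 0.05, beside 2.43% of all genes. That gene was Serping1, at 2.80 ± 1.12 (edgeR adjusted p = 1), and it was at 0.53 once replicate A of APG-157 + anti-PD-1 was left out. DESeq2 called 0 of 9 in each of these 5 comparisons.

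With anti-CD8 alone, 7 of 9 genes had both libraries below both controls, as did 19.1% of all genes, and only Serping1 and C5ar1 overlapped control. The log2 fold changes of C1qa, C1qb and C1qc were -0.71, -0.74 and -0.75, each ± 0.44 to 0.45 SE, and that of C4b was -0.93 ± 0.62. The median over the 9 genes was -0.67 beside -0.02 over all genes. EdgeR called 0 of 9 (adjusted p = 1) with 0 at an unadjusted p under 0.05, and 0% of all genes, and DESeq2 called 0. T cell list levels were -0.08 and -0.07 in these libraries, against 1.96 and 2.40 in control tumors, and interferon list levels were 5.14 and 5.17, against 6.27 and 6.32. Their part in the lower complement values was not tested.

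Adding anti-CD8 to APG-157 + anti-CTLA-4 was the comparison with the most calls over all genes. Both libraries of the CD8-depleted combination lay below both of APG-157 + anti-CTLA-4 in 5 of 9 genes, C1qb, C1qc, C2, C4b and C5ar1, as in 31.1% of all genes. C4b was at -1.42 ± 0.62 and C5ar1 at -0.86 ± 0.35, the 2 of 9 at an unadjusted p under 0.05, beside 38.3% of all genes. EdgeR called 0 of 9 (adjusted p = 0.115 for C4b and 0.0911 for C5ar1) and 19% of all genes, while DESeq2 called 1 of 9, C4b, at an adjusted p = 0.0497, and 29.5% of all genes. C1qa was at -0.39 ± 0.44. Without the adipocyte-rich library C4b was at -1.31, C5ar1 at -0.38 and C1qa at 0.03. Without that library edgeR called 0.0394% of all genes, and without the other library of that group it called 1 of 9, C5ar1 (adjusted p = 0.00345), and 40.7% of all genes.

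Against control, tumors given the CD8-depleted combination had C3 at 3.92 ± 1.496, the 1 of 9 genes at an unadjusted p under 0.05, beside 19.1% of all genes. EdgeR called 0 of 9 (adjusted p = 0.202 for C3) and 0.0102% of all genes, and DESeq2 called C3 (adjusted p = 0.0374) and 6.85% of all genes. The value rested on the adipocyte-rich library, since without it C3 was at -0.05. A test over all 10 groups called 0 of 9 in edgeR (lowest adjusted p = 0.288) and 0.879% of all genes, with 1 of 9, C4b, at an unadjusted p under 0.05, beside 16.5% of all genes. DESeq2 called 3 of 9 there, C4b, C2 and C3 (adjusted p = 0.00527, 0.0184 and 0.0298), beside 17.1% of all genes.

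A wider list of 46 other complement genes, from proteases to receptors, was read in the same fit, and 34 passed the filter. In the anti-PD-1 contrast 28 of 34 had a positive log2 fold change (median 0.34), as did 46.4% of all genes, and 0 were called by edgeR, with 6 at an unadjusted p under 0.05, all upwards, beside 8.77% of all genes. In the anti-CTLA-4 contrast 19 of 34 were positive (median 0.07), as were 48.9% of all genes. At an unadjusted p under 0.05 stood 8 upwards and 1 downwards, beside 10.1% of all genes, and edgeR made 1 call, beside 0.25% of all genes. This was Itgb2, the shared β chain of the complement receptors CR3 and CR4, at 0.74 ± 0.13 (edgeR adjusted p = 0.0455). Its call was kept without APG-157 replicate A, anti-CTLA-4 replicate B or replicate B of the triple treatment, and not on leaving out any of the other 13 libraries of that contrast in turn (edgeR adjusted p between 0.107 and 0.180). Cfp, the stabilizer of the alternative convertase called properdin, was the 1 gene of the list called over all groups (edgeR adjusted p = 0.0418). That call was not kept in the fit without the adipocyte-rich library. Cfp had 168 and 139 CPM with anti-CTLA-4, 154 and 155 CPM with the antibody pair, 151 and 127 CPM with APG-157, and 95.5 and 90.2 CPM with anti-CD8, against 91.2 and 91.4 CPM in control tumors. Its other groups lay between 110.0 and 139.5 CPM, except the CD8-depleted combination at 93.9 and 85.8 CPM.

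Where anti-CD8 was added to APG-157 + anti-CTLA-4, edgeR called 7 of the 34, a share close to the 19% of all genes it called there. Itgb2 (103 to 129 CPM with anti-CD8 added, against 333 to 343 CPM without it), Itgam, the α chain of CR3 (145 to 243 CPM against 446 CPM in both), C3ar1, the C3a receptor (123 to 221 CPM against 403 to 404 CPM), and Cfp (85.8 to 93.9 CPM against 134 to 139.5 CPM) fell, with edgeR adjusted p between 0.0252 and 0.0283. Cfd, the factor D protease that adipocytes secrete, Vtn, which encodes vitronectin, and Cd59a rose (edgeR adjusted p = 0.0339, 0.0284 and 0.0416). Cfd had 4.02 and 1352 CPM with anti-CD8 added, against 0.0147 and 0.0183 CPM without it, which is 1 count in each, and Cd59a, an inhibitor of the membrane attack complex, had 5.31 and 48.7 CPM against 4.87 and 4.73 CPM. Without the adipocyte-rich library none of the 7 was called (edgeR adjusted p between 0.210 and 0.913), with log2 fold changes of -1.39 for Itgb2, -0.88 for Itgam, -0.87 for C3ar1, -0.54 for Cfp, 7.76 for Cfd, 2.33 for Vtn and 0.15 for Cd59a, against -1.54, -1.20, -1.23, -0.60, 15.16, 3.47 and 2.49 over all libraries. None of the 7 was called either once the counts of the APG-157 + anti-CTLA-4 pair of libraries were added up (edgeR adjusted p between 0.19 and 0.206), without one or the other of that pair (between 0.189 and 0.21), or in a fit to the compared groups only (between 0.205 and 0.259). In addition the macrophage list level of that library, 5.92, was the lowest of all 20.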

How the data were processed

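RNA of 20 tumor samples was made into mRNA libraries by the authors. The authors trimmed reads with Trimmomatic 0.39 and deposited an expected count per gene, estimated with Salmon against GENCODE vM27 on build GRCm39 and summed from transcripts, unscaled. Salmon is 1.5.0 in the submitters' processing notes and a later patch version in the methods. A second deposited table of log2 values was not used here. Gene symbols were looked up by Ensembl ID for 51484 of 54309 genes.

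Expected counts were rounded to whole numbers. The low-count filter was filterByExpr of edgeR (minimum count 10, minimum total 15). The edgeR 4.0.16 quasi-likelihood test with TMM factors and robust dispersions was fitted to all 20 libraries as 10 group means in R 4.3.3, leaving 10 residual degrees of freedom. The common dispersion equalled a biological coefficient of variation of 38.7%. Calls were made under an adjusted p of 0.05 (Benjamini-Hochberg, over all genes tested). SE is the log2 fold change divided by the root of F. The fit was tested on simulated data. Alternatives were DESeq2 1.42.0, RLE factors, other filters, the compared groups only, a log2 fold minimum of 2, the replicate letter as a block, macrophage and skeletal muscle covariates, a sum of both APG-157 + anti-CTLA-4 libraries as 1 sample, and each library left out. Correlations without the adipocyte-rich library were added after seeing the data. Named genes were all 9 complement genes, the 3 likest genes of each, genes of the wider list called in any comparison, and C4a, and some items under this rule are not reported here. The members and lists were chosen with earlier results of these data known. Figures were drawn with matplotlib 3.10.9 in Python 3.11.15.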

Additional observations from a re-analysis of the deposited data

How the results depend on the processing

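With 2 libraries a group the calls depended on the fit. Of the 9 complement genes, DESeq2 called 1 (C3) for the CD8-depleted combination minus control, 1 (C4b) for it minus APG-157 + anti-CTLA-4, and 3 over all groups, beside 6.85%, 29.5% and 17.1% of all genes. A fit to the compared groups only called 4 for APG-157 + anti-CTLA-4 minus control, 4 for the antibody pair minus control and 1 for APG-157 + anti-CTLA-4 minus anti-CTLA-4, beside 4.21%, 1.81% and 14.3% of all genes. Leaving out 1 library at a time gave 0 to 1 calls for the anti-CTLA-4 effect, 0 to 1 for the CD8-depleted combination minus APG-157 + anti-CTLA-4 and 0 to 2 for it minus control, where the highest counts stood beside 0.559%, 40.7% and 30.2% of all genes. Counts stayed at 0 under RLE factors, other filters, covariates, the fold minimum, the sum of both APG-157 + anti-CTLA-4 libraries and the fit without the adipocyte-rich library. With the letter as a replicate block 0 of 9 were called in every comparison. The correlation of A deviations between groups had a median of 0.016, so the letters showed no general pairing. It ran from -0.38 to 0.71, and a pairing or batch in some groups or genes only was not tested. The number of genes called over the whole table moved with the block, to 596 against 1 for APG-157 + anti-CTLA-4 minus anti-CTLA-4.

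Leaving out a library moved the log2 fold change of C3 in the CD8-depleted combination minus control between -0.0529 and 4.84, and that of C1qa in it minus APG-157 + anti-CTLA-4 between -0.996 and 0.0294, and the macrophage covariate put that of C1qa at 0.153. Correlations that changed sign were weak or rested on the adipocyte-rich library. For deviations from group means, r with the fibroblast list was 0.0748 for C1qa, 0.0493 for C1qb, 0.0418 for C1qc, 0.0593 for C4b and 0.208 for Cfb, and within single letters 0.0291 for C1qb and -0.0438 for C2. Without the 2 farthest libraries it was 0.1502 for C4b and 0.227 for Cfb. With the macrophage list, r without the 2 farthest libraries and within replicate A libraries was 0.689 and 0.802 for C3, 0.420 and 0.405 for Serping1, and -0.660 and -0.325 for C5ar1. Without the adipocyte-rich library it was 0.737, 0.401 and -0.501 for these genes, and with the fibroblast list 0.0293 for C1qa and 0.0441 for C1qb. The cause of these changes was not tested.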
